A study of Mus musculus with 6 samples.

Results

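The genes described here encode 10 enzymes and chaperones of collagen maturation: Lox, Loxl1, Loxl2, Loxl3, P4ha1, P4ha3, Plod2, Serpinh1, Fkbp10 and Pcolce. They were taken by symbol from the 55450 genes of the deposited count table, and all 10 were found. Kidney mRNA was sequenced from 3 wild type C57BL/6J mice of the day-0 group and 3 of the day-21 group, out of 6 mice per group in the study. The mice were male, 7 weeks old at purchase and given 1 week to acclimatise. For 21 days the day-21 group received adenine at 0.16 g/kg and potassium oxonate at 2.4 g/kg each day, by gavage as the study's methods state. Adenine gives rise to crystals in the tubules and potassium oxonate blocks the breakdown of uric acid. The model is used for hyperuricemic kidney disease with fibrosis. The day-0 group was the control and is labelled with 20% PEG. Each library came from whole kidney, so fewer cells of a type and less RNA per cell cannot be told apart in any value below.

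Fibrillar collagen is modified inside the cell before it can form a fibril. Prolyl 4-hydroxylase, made of an alpha subunit (P4ha1, P4ha2 or P4ha3) and the beta subunit P4hb, hydroxylates prolines and so stabilises the triple helix. Lysyl hydroxylase 2, encoded by Plod2, hydroxylates lysines in the telopeptides at the ends of the chains, and Fkbp10 encodes FKBP65, an endoplasmic reticulum prolyl isomerase that this step needs. Serpinh1 encodes HSP47, the chaperone that binds the folded procollagen helix. Outside the cell, Pcolce raises the rate at which BMP1 removes the C-terminal propeptide. The copper enzymes of the lysyl oxidase family then oxidise lysines and hydroxylysines to aldehydes, which react to form covalent crosslinks between chains.

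The catalytic domain of the lysyl oxidases holds a histidine-rich copper-binding motif. Its coding sequence was set side by side for the family members other than Lox. The matching 33 bases, read from the GENCODE release 21 transcripts on GRCm38, are printed below for 3 of the genes described here and for their relative Loxl4, with capitals at the 13 positions where these sequences are not all the same.
Loxl1: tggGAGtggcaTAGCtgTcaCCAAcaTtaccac
Loxl2: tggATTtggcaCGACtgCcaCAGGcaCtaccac
Loxl3: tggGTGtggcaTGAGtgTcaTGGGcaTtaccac
Loxl4: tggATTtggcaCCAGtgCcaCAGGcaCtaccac
The other 20 positions were identical. The stretch was found by searching for the fixed amino acids of this motif, so most of this identity was set by the search. In each gene the stretch crossed an exon boundary at the same place, with 23 bases in one coding exon and 10 in the next. For Loxl1 these lay at chr9:58294359-58294381 and chr9:58293720-58293729 on the minus strand, in exons 3 and 4 of 7. For Loxl2 they lay at chr14:69682316-69682338 and chr14:69689028-69689037 on the plus strand, and for Loxl3 at chr6:83049995-83050017 and chr6:83050116-83050125 on the plus strand, in both genes in exons 10 and 11 of 14. Loxl2 and Loxl4 differed at 2 of the 33 positions, Loxl1 and Loxl4 at 12, and Loxl1 and Loxl2 at 11. Over whole transcripts, the longest identical run between any members of this family was 32 bases, between Lox and Loxl1, against a read length of 150 bases. Loxl2 was the exception as to copies elsewhere: 43.6% of the 50-base words of its longest transcript also occur in Gm21451, an unprocessed pseudogene at chr14:69390854-69480287. This pseudogene had 0 counts in all 6 mice. How reads that match both genes were counted is not given in the sources used here, so the level of Loxl2 is uncertain. Of the words of the other 9 genes, those of P4ha3 were shared at 0.26% and those of the remaining 8 not at all.

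On day 21, 6 of the 9 genes that could be tested were higher than on day 0 and none was lower by the study's thresholds. The 6 were Lox, Loxl1, Loxl2, Loxl3, Serpinh1 and Fkbp10. Pcolce was higher at an adjusted p of 0.011 by edgeR but by less than the fold required, P4ha1 and Plod2 were not called, and P4ha3 had too few counts to test. A gene was called at a Benjamini-Hochberg adjusted p under 0.05 and a fold over 1.5, with edgeR's quasi-likelihood test over 16592 genes. Of all those genes, 19.6% were called higher and 15.5% lower, or 35.1% in either direction. Without the condition on the fold, 7 of the 9 genes passed, all as higher, and so did 45.6% of all genes (23.9% as higher). No gene of the 9 was called lower by edgeR or limma-voom, 1 was by DESeq2, and 1 had an unadjusted p under 0.05, P4ha1 in both cases. The median log2 fold change was 1.29 over the 9 genes and 0.03 over all genes tested. In 7 of the 9, the 6 called genes and Pcolce, every day-21 mouse lay above every day-0 mouse, and this was so for 30.7% of all genes tested (57.1% parted in either direction). The exact permutation test of 3 mice against 3 is two-sided and cannot go below p = 0.1. It gave 0.1 for each of these 7. Levels below are CPM, a gene's counts scaled to a common library total, here on library sizes scaled by the TMM method.

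**Figure D1:**
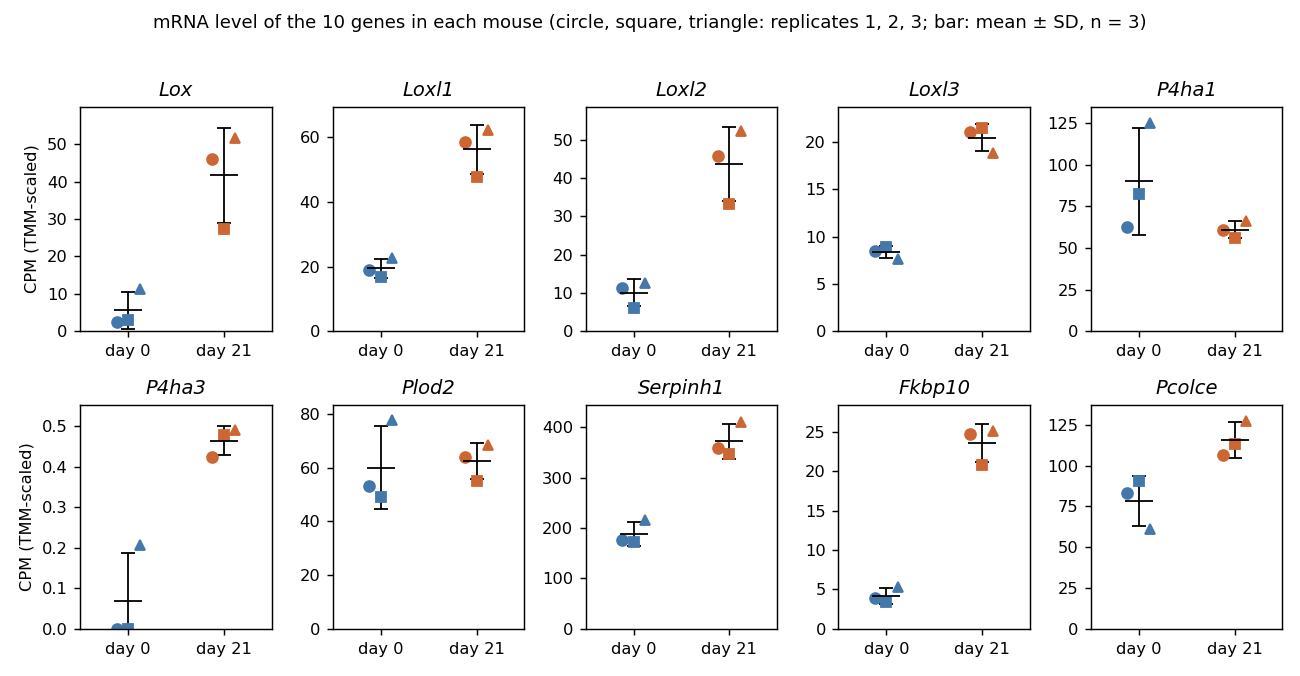
CPM of each of the 10 genes (linear axes from 0) in the mice of the day-0 group (blue) and the day-21 group (orange), with symbols for replicates 1, 2 and 3 and bars for mean ± SD (n = 3). The groups part without overlap in the panels of Lox, Loxl1, Loxl2, Loxl3, Serpinh1, Fkbp10 and Pcolce, and in that of P4ha3 at 0 to 8 counts per mouse, while they overlap for P4ha1 and Plod2.

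Libraries held between 10963849 and 14256556 counts on day 0 and between 12662200 and 14333311 on day 21. Mitochondrially encoded genes took 9.39% to 9.86% of counts on day 0 and 3.82% to 4.42% on day 21, and the 20 most abundant genes took 17.8% to 18.4% and 11.7% to 13.1%. With libraries scaled by total count alone, all genes together had a median log2 fold change of 0.42, and 81.7% of called genes were higher rather than 55.8%. Under that scaling, 36.1% of all genes were called higher and 8.06% lower, and 7 of the 9 genes were higher, Pcolce being the addition. The part of these differences between libraries in the results was not tested.

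Lox, the founding lysyl oxidase, rose most of the 9. It lies at chr18:52516067-52529867 (minus strand, GRCm38). Its level was 2.41, 2.97 and 11.2 CPM on day 0 and 46.0, 27.3 and 51.8 CPM on day 21, from 24, 36 and 109 counts and 650, 458 and 845 counts. The third day-0 mouse stood well above the other day-0 mice, yet below every day-21 mouse. The mean went from 5.54 ± 4.94 to 41.7 ± 12.8 CPM (SD, n = 3), a log2 fold change of 2.94 (SE 0.47, 95% confidence interval 1.89 to 3.98, edgeR adjusted p = 0.0006), or 7.65-fold. The size of the change rested on that mouse: without it the log2 fold change was 3.92.

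Loxl1, Loxl2 and Loxl3 also rose, with smaller fold changes. Loxl1, whose product is known for crosslinking elastin, lies at chr9:58287738-58313186 (minus strand). It measured 19.1, 16.7 and 22.6 CPM on day 0 and 58.5, 47.8 and 62.4 CPM on day 21. All day-21 mice were above 47 CPM and all day-0 mice below 23 CPM. The log2 fold change was 1.53 (SE 0.15, 95% confidence interval 1.20 to 1.87, edgeR adjusted p = 2.7e-05). Loxl2, which acts on collagen IV of basement membranes as well as on fibrillar collagen, lies at chr14:69609068-69695834 (plus strand). Its level was 11.3, 6.02 and 12.7 CPM on day 0 and 46.0, 33.2 and 52.3 CPM on day 21, so the lowest day-21 mouse was above the highest day-0 mouse. Its log2 fold change was 2.14 (SE 0.26, 95% confidence interval 1.56 to 2.72, edgeR adjusted p = 0.0001), with the uncertainty from the pseudogene given above. Loxl3, a paralogue with a role in craniofacial and muscle development, lies at chr6:83034173-83052562 (plus strand). It measured 8.52, 8.90 and 7.63 CPM on day 0 and 21.1, 21.5 and 18.8 CPM on day 21, a narrow spread in each group. Its log2 fold change was 1.29 (SE 0.15, 95% confidence interval 0.95 to 1.63, edgeR adjusted p = 8.0e-05). Of its exon bases, 11.6% lie in exons of Htra2 on the opposite strand, which was not called at a log2 fold change of -0.25. Whether counting used the strand is not given in the sources used here.

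Lox made up a larger part of its family in every day-21 mouse than in any day-0 mouse. Counts per kb of exon were summed over Lox, Loxl1, Loxl2, Loxl3 and Loxl4 in each mouse, a measure on which library scaling has no bearing. Lox made up 4.64%, 6.45% and 15.4% of that sum on day 0 and 22.6%, 17.5% and 23.7% on day 21. Loxl1 was the most abundant of the family in every mouse, but its share was lower on day 21, at 42.5% ± 1.61 against 50.3% ± 4.70 (SD, n = 3). Loxl4 held 9.44% ± 3.89 on day 0 and 4.85% ± 0.23 on day 21. The groups did not overlap for any of these 3 shares, each at the smallest exact permutation p of 0.1 (0.157 adjusted over the 11 shares computed). The shares of Loxl2 (15.4% and 20.0%) and Loxl3 (16.0% and 11.3%) overlapped between the groups. As a level, Loxl4 was not called, at a log2 fold change of 0.72 (edgeR adjusted p = 0.141), although without day-0 replicate 3 it was 1.34 and passed the test (adjusted p = 0.0032).

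**Figure D2:**
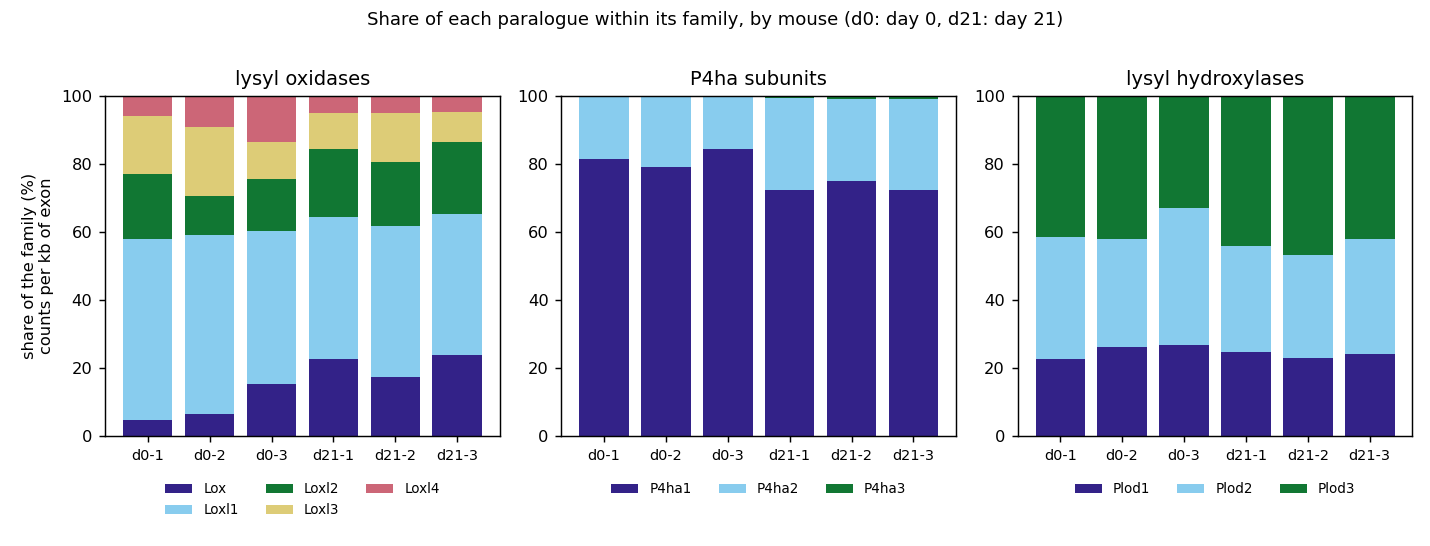
Share of each paralogue (%, bars from 0 to 100) in the summed counts per kb of exon of its family, for the lysyl oxidases, the prolyl 4-hydroxylase alpha subunits and the lysyl hydroxylases, in each of the 6 mice. Lox takes a larger share of its family in all 3 day-21 mice, P4ha1 a smaller share and Plod3 a slightly larger one, while the shares of Plod1 and Plod2 overlap between the groups.

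No hydroxylase gene among the 10 was called. P4ha1, the main alpha subunit of prolyl 4-hydroxylase, lies at chr10:59323296-59373304 (plus strand). It measured 62.4, 82.7 and 125 CPM on day 0 and 60.9, 56.0 and 66.0 CPM on day 21. The day-0 mice were spread over a range that reached down into that of the day-21 mice. This gave a log2 fold change of -0.56 (SE 0.21, 95% confidence interval -1.03 to -0.09, edgeR adjusted p = 0.052), and the exact permutation p was 0.2. The gene was thus not called, but it was called lower without the first day-0 mouse, at -0.79 (adjusted p = 0.0028). Without the third day-0 mouse the value was -0.27 (edgeR adjusted p = 0.167), and with libraries scaled by total count alone it was -0.18 (adjusted p = 0.499). Its partner P4hb, which also serves as protein disulfide isomerase, fell from 952 ± 101 to 615 ± 23.7 CPM (SD, n = 3), a log2 fold change of -0.63 (edgeR adjusted p = 0.0015) that was -0.24 and not called with libraries scaled by total count alone, and -0.54 and not called with upper-quartile scaling or without the second day-0 mouse. P4ha2, the other common alpha subunit, was not called at 0.15 (edgeR adjusted p = 0.557). P4ha1 made up 81.6% ± 2.69 of the alpha subunits on day 0 and 73.2% ± 1.53 on day 21, and P4ha2 18.3% ± 2.78 and 26.1% ± 1.62, with no overlap between the groups (exact permutation p = 0.1, adjusted 0.157). As P4ha3 held only 0.061% on day 0 and 0.73% on day 21, these shares mirror each other and are not separate results.

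P4ha3, the remaining alpha subunit, was at the edge of detection. This gene at chr7:100285520-100319699 (plus strand) had counts of 0, 0 and 2 on day 0 and of 6, 8 and 8 on day 21. Only the day-21 mice were above 3 counts, taken as the floor. Against the library sizes, the 22 counts of day 21 were 7.41 times the 2 counts of day 0, with an exact 95% interval for counting error of 1.82 to 65.0. It did not pass the filter on low counts. When no filter was applied, it was not called (log2 fold change 2.69, SE 1.28, edgeR adjusted p = 0.103), where 13.4% of 26914 genes were called higher and 10.5% lower.

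Plod2 gave the smallest difference among the tested genes. It lies at chr9:92542223-92608428 (plus strand) and measured 53.3, 49.0 and 77.8 CPM on day 0 and 64.0, 54.9 and 68.4 CPM on day 21. The mice of the groups were interleaved. The log2 fold change was 0.06 with a 95% confidence interval of -0.32 to 0.44 (edgeR adjusted p = 0.804, exact permutation p = 0.8). Among its paralogues, Plod1, which hydroxylates lysines within the helix, was not called at 0.17 (edgeR adjusted p = 0.394). Plod3, which also glycosylates hydroxylysine, was 1.38-fold higher (edgeR adjusted p = 0.0033), short of the fold required. The share of Plod2 among the lysyl hydroxylases was 36.1% ± 4.23 on day 0 and 31.8% ± 1.75 on day 21, and the groups overlapped. That of Plod3 was 32.8% to 42.0% on day 0 and 42.2% to 46.7% on day 21, which did not overlap by a narrow margin (exact permutation p = 0.1, adjusted 0.157).

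The chaperones Serpinh1 and Fkbp10 both rose, by different amounts. Serpinh1, at chr7:99345376-99353239 (minus strand), measured 176, 173 and 217 CPM on day 0 and 358, 346 and 411 CPM on day 21. Each day-21 mouse was far above the day-0 mice. The log2 fold change was 0.98 (SE 0.13, 95% confidence interval 0.70 to 1.27, edgeR adjusted p = 0.00016), or 1.97-fold. Fkbp10, at chr11:100415697-100424824 (plus strand), measured 3.91, 3.38 and 5.26 CPM on day 0 and 24.7, 20.8 and 25.1 CPM on day 21. It was low on day 0, at 39 to 51 counts per mouse, and reached 349 to 410 counts on day 21. Its log2 fold change was 2.50 (SE 0.20, 95% confidence interval 2.06 to 2.94, edgeR adjusted p = 7.4e-06), or 5.66-fold. Of its exon bases, 6.58% lie in exons of Nt5c3b on the opposite strand, which was itself called higher at 1.13. The count ratio of Fkbp10 to Serpinh1 had a log2 value of -5.66 to -5.35 on day 0 and -4.05 to -3.86 on day 21. This ratio, chosen after the values were seen, was 1.51 higher on day 21 on the log2 scale.

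Pcolce was higher on day 21 by slightly less than the threshold of 1.5-fold. The gene, at chr5:137605103-137613784 (minus strand), measured 83.1, 90.6 and 61.2 CPM on day 0 and 106, 114 and 127 CPM on day 21. The groups did not overlap. The log2 fold change was 0.56 (SE 0.15, 95% confidence interval 0.23 to 0.90), or 1.48-fold, and passed the threshold of 0.585 in log2 units under several settings, among them upper-quartile scaling (0.65) and leaving out the first day-21 mouse (0.62) or the second day-0 mouse (0.68). Without the third day-0 mouse it was 0.40 (edgeR adjusted p = 0.029), and without the third day-21 mouse 0.49, where the adjusted p of 0.055 missed 0.05. Bmp1, the protease it assists, was higher by 2.67 (edgeR, 6.36-fold), from between 6.08 and 10.03 CPM to between 49.5 and 60.8 CPM. The count ratio of Pcolce to Bmp1, also chosen after the values were seen, was therefore lower in each day-21 mouse, by 2.11 on the log2 scale. Pcolce2, a related enhancer, was not called at 0.54 (edgeR adjusted p = 0.294).

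RefSeq promoter windows on GRCm38.p6 are reported here for 4 of the 10 genes, P4ha1, P4ha3, Serpinh1 and Pcolce. Lox was left out of this search. The windows of a called and an uncalled gene are shown because they are the clearest contrast among the 4. Each window runs 5′ to 3′ on the gene's strand from 250 bases before to 50 bases after the start. Capitals mark ACGTG and GCGTG, both of which occur as the core of the element that hypoxia-inducible factors bind, and the GC box GGGCGG, on either strand. The windows are chr7:99353190-99353489 (minus strand) and chr10:59323046-59323345 (plus strand).
Serpinh1: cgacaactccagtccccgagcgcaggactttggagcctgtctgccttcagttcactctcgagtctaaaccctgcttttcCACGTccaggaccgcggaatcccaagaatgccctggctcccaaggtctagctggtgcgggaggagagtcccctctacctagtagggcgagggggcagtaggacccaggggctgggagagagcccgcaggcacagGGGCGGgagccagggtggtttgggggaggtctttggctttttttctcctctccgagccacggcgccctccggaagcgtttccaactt
P4ha1: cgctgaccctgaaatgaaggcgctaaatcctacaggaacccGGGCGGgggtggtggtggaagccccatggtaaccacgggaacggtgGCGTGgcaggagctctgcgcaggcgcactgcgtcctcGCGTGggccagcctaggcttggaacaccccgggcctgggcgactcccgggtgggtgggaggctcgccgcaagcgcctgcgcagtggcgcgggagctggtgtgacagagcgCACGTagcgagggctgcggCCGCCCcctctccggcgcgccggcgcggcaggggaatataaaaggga
Serpinh1 held 1 ACGTG and 1 GC box. P4ha1, which was not called, held 1 ACGTG, 2 GCGTG and 2 GC boxes. P4ha3 held 5 matches to the GC box, some overlapping each other, and Pcolce 1 GCGTG and 1 GC box. Among 32851 promoter windows of the same length, 19.6% held ACGTG, 32.4% GCGTG and 35.7% the GC box. These are matches of letters and not measured binding sites.

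The order of the genes by level differed between the groups. Per kb of exon, Serpinh1 was highest on both days, at 77.1 CPM per kb on day 0 (70.9 to 88.7) and 152 on day 21 (142 to 168). On day 0 it was followed by P4ha1 (21.9) and Pcolce (20.5), which overlapped, then Plod2 (11.1) and Loxl1 (5.90). Loxl2 (1.85), Loxl3 (1.81), Fkbp10 (1.43) and Lox (1.16) came next, each overlapping its neighbour in this order. On day 21 Pcolce (30.3) was second, Loxl1 (17.1) and P4ha1 (14.8) overlapped behind it, and Plod2 (11.6), Lox (8.72), Loxl2 (8.11) and Fkbp10 (8.03) again formed a chain of overlapping neighbours, above Loxl3 (4.44). P4ha3 was lowest on both days, at 0.15 CPM per kb or less on average. The order rests on the length used, the merged exons of all transcripts of a gene. These came to 3823 bases for Pcolce, whose longest transcript has 2573, and to 5392 for Plod2, whose longest has 3663. Levels by another length were not computed, so the places of these genes next to P4ha1 are uncertain.

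Relative to the collagen mRNAs whose products they modify, 8 of the 9 tested genes were lower in every day-21 mouse than in every day-0 mouse, as were 94.5% of all genes tested (0.38% were higher in every mouse), so the count itself sets nothing apart. Col1a1 measured 11.5, 14.3 and 25.1 CPM on day 0 and 373, 279 and 385 CPM on day 21, a log2 fold change of 4.35. Col3a1 was higher by 4.03 and Col1a2 by 2.90. The counts of each gene were set against the summed counts of Col1a1, Col1a2 and Col3a1 in each mouse, on the log2 scale with 0.5 added to both. The ratio of P4ha1 was lower by 4.15, that of Plod2 by 3.56, that of Pcolce by 3.06 and that of Serpinh1 by 2.66 in the day-21 group. Loxl3 was lower by 2.35, Loxl1 by 2.11, Loxl2 by 1.47 and Fkbp10 by 1.14. For these 8 genes the groups did not overlap (exact permutation p = 0.1, 0.125 adjusted over 10). For Lox the ratio was -5.25, -4.89 and -3.97 on day 0 and -5.18, -5.12 and -5.11 on day 21, which overlapped, with a difference of -0.44 (exact permutation p = 0.4). The overlap depended on the setting: against Col1a1 alone the difference was -1.21 and with a pseudocount of 5 it was -0.58, both without overlap (exact permutation p = 0.1), and without the third day-0 mouse it was -0.071. The ratio of P4ha3 overlapped at a difference of -1.03 (exact permutation p = 0.2), but not against Col1a1 alone (-1.80), against Col3a1 alone (-1.44) or with a pseudocount of 5 (-3.07), each at an exact permutation p of 0.1. The pseudocount of 5 exceeds every day-0 count of P4ha3, so the last value follows the collagen counts more than those of P4ha3.

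**Figure D3:**
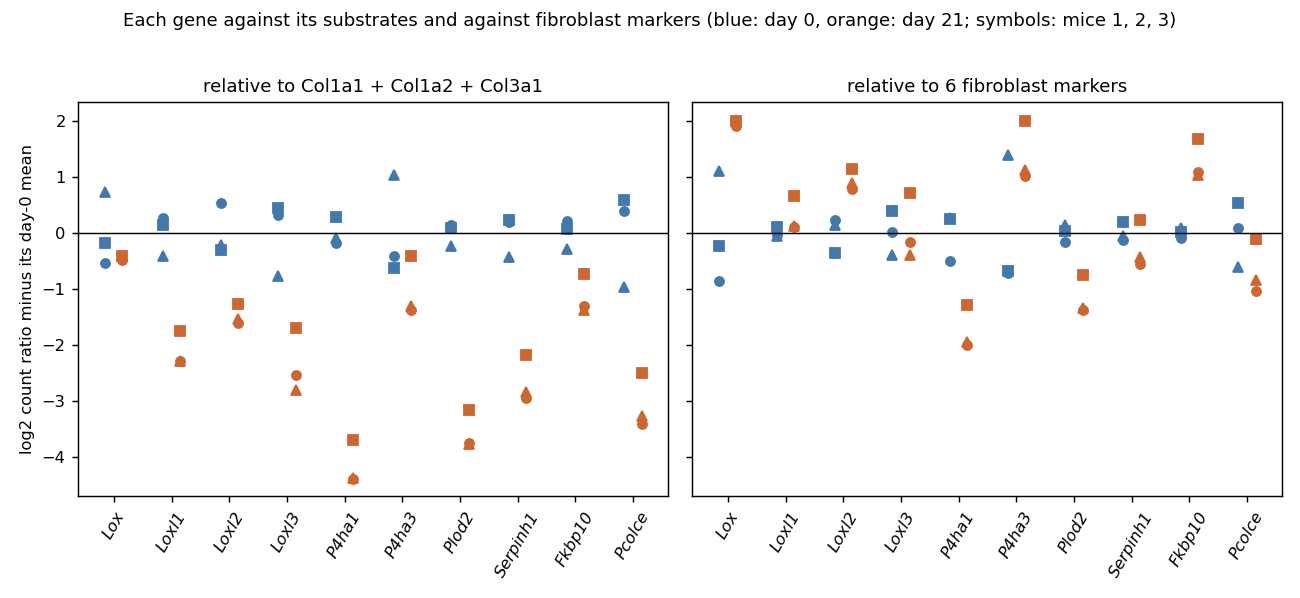
Log2 count ratio of each gene to the summed Col1a1, Col1a2 and Col3a1 counts (left) or to the summed counts of 6 fibroblast markers (right) in each mouse, minus the mean of the day-0 mice. Against the collagens, the day-21 mice (orange) lie below the day-0 mice (blue) for all genes except Lox and P4ha3 at the pseudocount of 0.5 used here. Against the markers, Lox, Loxl2 and Fkbp10 lie above, Loxl1 lies above by a very narrow margin, and P4ha1 and Plod2 lie below.

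Cell type markers moved with these results. All 6 fibroblast markers (Pdgfra, Pdgfrb, Dcn, Lum, Col6a3 and Mfap5) were called higher, and their summed level went from between 123 and 184 CPM to between 240 and 448 CPM. Pdgfrb rose by 1.24 and Dcn by 1.20 on the log2 scale. The groups did not overlap for 4 of the 6 but did for Dcn and Pdgfra. Of 5 myofibroblast and smooth muscle markers, 2 were called higher, Tagln (0.73) and Acta2 (0.60), and 1 lower. Acta2 passed narrowly, at 1.52-fold (edgeR adjusted p = 0.040), and its groups overlapped. All 6 macrophage markers were higher (115 to 146 CPM, then 548 to 660 CPM), C1qa by 3.25 and C1qb by 3.01. All 5 markers of injured tubule were also higher (24.8 to 62.0 CPM, then 1924 to 2317 CPM), with Havcr1 at 8.07 and Lcn2 at 6.27. All 6 proximal tubule markers were lower (9318 to 10654 CPM, then 1821 to 2334 CPM), with Slc34a1 at -2.47 and Lrp2 at -2.37. Of the endothelial markers 2 of 6 were lower, with Flt1 at -1.22 and Pecam1 not called at -0.26. Of the podocyte markers 3 of 5 were lower, among them Podxl (-0.71), and of the distal nephron markers 3 of 5, with Slc12a1 at -1.65 and Umod not called at -0.45. No marker was at 0 in all mice, and the tubule and podocyte markers that define kidney were detected in both groups. The part of these cell types in the changes of the 10 genes was not tested.

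Against the fibroblast markers themselves, the 10 genes differed in direction. This ratio was chosen after the values were seen and is given without a test. Of all genes tested, 5.14% were higher relative to these markers with no overlap between the groups and 61.3% were lower. Counts of Lox were higher by 1.97 relative to the summed counts of the 6 markers, those of Fkbp10 by 1.26, those of Loxl2 by 0.93 and those of Loxl1 by 0.29, on the log2 scale and with no overlap between the groups. For Loxl1 the margin was very narrow, at -3.02, -2.88 and -3.02 on day 0 and -2.87, -2.32 and -2.84 on day 21. P4ha1 was lower by 1.74 and Plod2 by 1.16, also with no overlap. Loxl3 (0.05), Serpinh1 (-0.25), Pcolce (-0.66) and P4ha3 (1.37) overlapped between the groups.

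The rest of the pathway held genes called in both directions. Of 49 other listed genes, 47 were tested, of which 20 were called higher and 5 lower, with a median log2 fold change of 0.54, beside 19.6% higher and 15.5% lower among all genes tested. Of these, 9 of the 10 tested substrate genes were higher. Without the substrates, 11 of 37 were higher and 5 lower, at a median of 0.23. The lower calls were near the share among all genes. With libraries scaled by total count alone, 28 of the 47 were called higher and 1 lower, beside 36.1% and 8.06% of all genes. Most of the falls given below were thus not called under that scaling. With RLE scaling 6 of the 47 were called lower, and with upper-quartile scaling 4. Among the genes listed with prolyl 3-hydroxylase, an enzyme that modifies single prolines, P3h3 (1.30), P3h1 (1.02) and P3h4 (0.83) rose and P3h2 (-0.94) fell. Of the enzymes that add galactose to hydroxylysine, Colgalt1 rose by 1.02 and Colgalt2 fell by 1.22. Sparc, a collagen-binding matricellular protein, rose by 2.12, whereas the chaperone Fkbp14, a relative of Fkbp10, was not called at 0.39. Of the 6 genes for export of procollagen from the endoplasmic reticulum, edgeR and limma-voom called 0 and DESeq2 called 1, while 3 had an unadjusted p under 0.05 by edgeR, with values from -0.56 for Mia2 to 0.16 for Creb3l1. Adamts2, which removes the N-terminal propeptide, rose by 3.17.

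Among genes whose products bind or load lysyl oxidases, Fn1, Efemp2 and Postn rose, by 3.02, 2.40 and 2.23. Fbln5 was not called, at -0.17 (edgeR adjusted p = 0.633). Fmod, a small proteoglycan that guides collagen crosslinking, fell by 1.22, and Atp7a, the transporter that supplies copper to lysyl oxidases, fell by 0.69. Fmod had 5.42, 18.4 and 13.8 CPM on day 0 and 5.58, 5.01 and 5.64 CPM on day 21, so its first day-0 mouse lay among the day-21 mice. Pxdn, whose product crosslinks collagen IV by another chemistry, rose by 1.61. The log2 fold changes in these last 2 paragraphs are edgeR values for 3 against 3 mice.

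**Figure D4:**
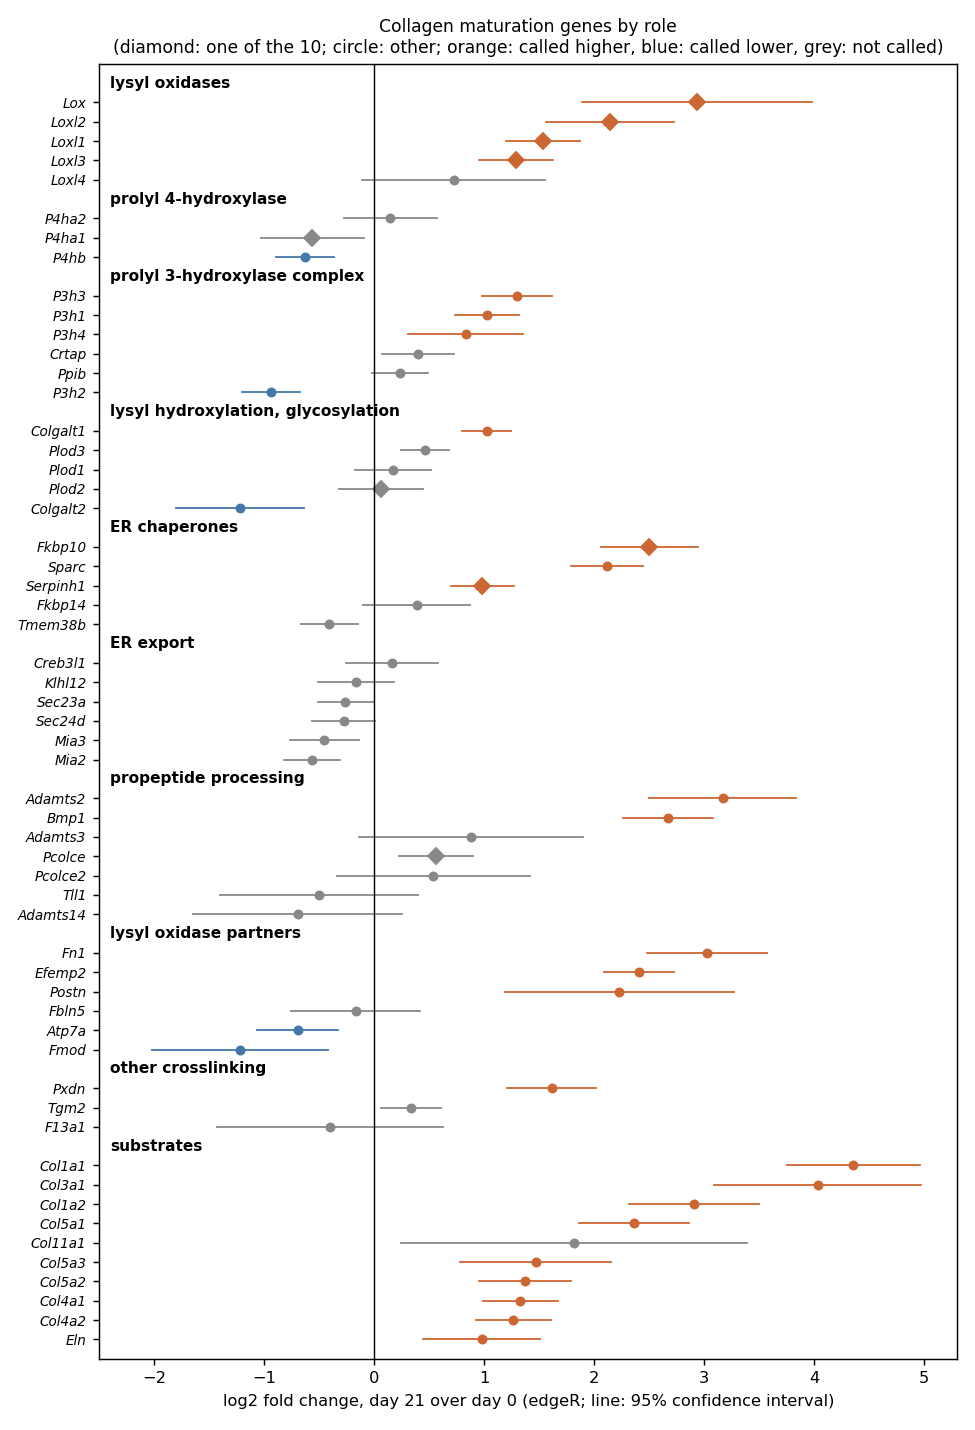
Log2 fold change of day 21 over day 0 (edgeR, lines: 95% confidence interval) for the 56 tested genes of the pathway, ordered by role, with diamonds for the genes described here. Orange marks 26 genes called higher, blue 5 called lower and grey those not called. Lox (2.94) and Fkbp10 (2.50) stand at the upper end of the diamonds, and P4ha1 (-0.56) and Plod2 (0.06) at the lower end.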

How the data were processed

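The authors extracted total RNA from kidney, made TruSeq libraries, sequenced them as paired reads and deposited raw counts per gene for each mouse, with no normalization. The submitters' processing notes name TopHat and mm10. The counting program and its strand setting are not given in the sources used here. Gene positions and exons came from GENCODE release 21. The groups were compared with edgeR 4.0.16 under R 4.3.3, by the quasi-likelihood test without a replicate block, after TMM scaling and filterByExpr (at least 10 counts in enough libraries and 15 in total). Alternatives used DESeq2 1.42.0, limma-voom (limma 3.58.1), other scalings, filters and thresholds, a replicate block and each mouse left out. Deviations of mice with the same replicate number correlated at -0.02, 0.17 and 0.09. The labels give no pairing of the mice, and none was used in the main test. No mice were duplicates. The labels do not say more of how the mice were housed or processed. The p-values weigh the group difference against the spread between these mice. A difference in handling between the groups cannot be told apart from the group difference. The fitting steps were tested on simulated data. Figures, shares, ratios and sequence searches were made in Python 3.11.15. The members and lists were chosen with earlier results of these data known. Genes named beyond the 10 are their paralogues and partner subunits, 3 collagens, the called gene with the largest rise and the one with the largest fall in each other role, and the 2 most abundant markers of each list, apart from a marker that is not reported here. P3h1, P3h4, Efemp2, Postn, Fbln5, Atp7a, Mia2 and Creb3l1, and the overlapping genes, were named after their values were seen.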

Additional observations from a re-analysis of the deposited data

How the results depend on the processing

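Lox, Loxl1, Loxl2, Loxl3 and Fkbp10 were called higher under all 16 alternatives, and Serpinh1 under all except the stricter threshold (a fold over 2 at an adjusted p under 0.01). There, 1918 of all genes were called higher and 1254 lower, and 1 of the other pathway genes was lower. With library size alone these counts were 5985, 1338 and 1. At any fold, 8 other pathway genes were lower. By DESeq2, and by RLE scaling, 1 of the 10 genes was called lower, P4ha1 in both. Leaving out each mouse, 0 to 1 of the 10 genes were called lower, 6 to 7 higher, and 3 to 6 of the other pathway genes lower. Without the second day-21 mouse, 3 pathway genes were lower rather than 5. With each mouse left out, the log2 fold change of Plod2 ran from -0.072 to 0.27 that of P4ha2 from -0.058 to 0.27, that of P4ha1 from -0.79 to -0.27 and that of Pcolce from 0.40 to 0.68. Plod2 turned negative without the first day-0 mouse (-0.036), the second day-0 mouse (-0.072) or the third day-21 mouse (-0.0099), and P4ha2 without the first day-0 mouse (-0.058). With a replicate block, 6 of the 10 genes were called higher and 0 lower, 20 and 5 of the other pathway genes, and 3235 and 2523 of all genes, and the block changed no call among the 10. The labels give no pairing of the mice. The shares and the ratios to collagen kept their direction under 99 and 100 alternative values, but whether the groups overlapped changed for the collagen ratios of Lox and P4ha3. It also changed for the shares of Loxl2, Loxl3, Plod1 and Plod2, which parted with certain single mice left out. Causes were not tested. With 3 mice per group and 2 counts of P4ha3 on day 0, its change could not be measured closely at this depth, and intervals from counts cover counting error only.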
